A study of Mus musculus with 4 samples.

Results

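The genes described here are 9 transcriptional regulators that act in the gonad before it becomes a testis or an ovary: Gata4, Wt1, Lhx9, Emx2, Six4, Cbx2, Zfpm2, Tcf21, and Gata6. They were taken by symbol from the 31053 genes of the count tables, and each symbol was found 1 time. No cutoff on measured values entered their definition, but they were chosen with earlier results of these data known. They were followed in 4 single-cell libraries made from XY mice or XY cells, with 1 library per condition: gonads taken from embryos at E10.5, E11.5, or E12.5, and aggregates derived from embryonic stem cells (ESCs) at day 6 (D6) of culture. The gonads came from ICR embryos, for which no transgene is named. The D6 cells came from 1 ESC line, N271S9C, whose strain the labels give as C57BL/6J and the paper as a cross with 129X1/SvJ. The line carries an Nr5a1 transgene that puts human CD271 on the cell surface and a fluorescent reporter, CGFP, joined to Sox9 through a 2A peptide. Its cells were first turned into epiblast-like cells with FGF2 and activin A. Its aggregates were then treated with BMP4, CHIR99021, and EGF, and next with retinoic acid, SHH, PD0325901, EGF, and BMP4. The last medium held BMP4, FGF9, and the Wnt inhibitor IWR1, and cells with CD271 were enriched on magnetic columns. Reagent kit (version 2 for the gonads, version 3 for D6), strain, culture, and sorting therefore differ together between D6 and the gonads and cannot be told apart. The E10.5 tissue included dorsal mesenchyme around the gonad, whereas for the later gonads the mesonephros had been removed.

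The gonad arises from a thickened strip of coelomic epithelium, from which cells move inward and become supporting or interstitial cells. Gata4, a zinc finger factor, is needed for this thickening, and Zfpm2 (Fog2) is the cofactor that binds Gata4. Gata6 is a close relative of Gata4. Wt1, Lhx9, and Emx2 are needed for the early gonad to form and survive, and Wt1 and Lhx9 are known to act on Nr5a1, the nuclear receptor that marks gonadal somatic cells. Six4 acts upstream of Nr5a1 and Sry, Cbx2 is a Polycomb subunit whose loss causes male-to-female sex reversal, and Tcf21 is a bHLH factor of mesothelial and interstitial progenitors.

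Cells within set limits on detected genes and mitochondrial RNA were retained, and these were 3837, 2101, 2764, and 2285 cells from E10.5 to D6. Where 4 values are listed, they are in this order of libraries. Each unique molecular identifier (UMI) counts 1 captured RNA molecule, and the retained cells held 32508523, 24625441, 34173977, and 11906360 UMIs, with a median per cell of 8167, 11926, 10946, and 4607. Levels are UMIs summed over cells and divided by all UMIs of the same cells, and are given as CPM (counts for each 1000000 UMIs), with exact Poisson intervals. Shares of cells carry exact (Clopper-Pearson) intervals, and all intervals are at 95%. They cover counting error only, since there was 1 library per condition, and no test between conditions was possible. Between 10 and 19 cell barcodes were shared by each pair of gonad libraries and 0 by D6 and any of them.

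Markers of other tissues moved with the libraries. The 5 sclerotome and cartilage genes summed to 212, 8.57, 10.6, and 75.6 CPM, with Pax1 and Nkx3-2 at 0 at E11.5, these and Pax9 at 0 at E12.5, and Nkx3-2 at 0 at D6. The 6 erythroid genes summed to 14540, 9196, 474, and 0.168 CPM, with 5 of them at 0 at D6, and the 6 germ cell markers to 32.6, 538, 1720, and 11.1 CPM. The part of these cells in the differences between libraries was not tested, beyond the values given without Pou5f1-positive and endothelial cells, an alternative chosen after seeing the data.

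Cells were also divided by gate genes, with 1 UMI enough to make a cell positive, so that a cell could be in several gates. Upk3b marks coelomic epithelium, Sox9 supporting cells, Pdgfra interstitial and other mesenchymal cells, Pou5f1 germ cells, and Nr5a1 gonadal somatic cells. There were 311, 308, 257, and 186 Upk3b-positive cells, 786, 768, 905, and 292 Sox9-positive cells, and 917, 633, 1103, and 604 Pdgfra-positive cells. Pou5f1-positive cells numbered 36, 245, 512, and 32 and Nr5a1-positive cells 72, 730, 883, and 664, where the D6 cells had been enriched, but not purified, by the Nr5a1 reporter. By the paper, some cells with low CD271 remained in the enriched fraction. A cell negative for a gate gene can still express it below detection.

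By the GENCODE M21 annotation of GRCm38, Gata4 lies at chr14:63198922-63271692, Wt1 at chr2:105126529-105173616, Lhx9 at chr1:138825186-138848577, Emx2 at chr19:59458372-59465357, and Six4 at chr12:73099609-73113456. Cbx2 is at chr11:119022962-119031270, Zfpm2 at chr15:40655035-41104592, and Tcf21 at chr10:22817281-22820174. The antisense gene Emx2os overlaps the 5′ end of Emx2, and whether the counting used strand is not given in the sources used here. The RefSeq promoter table (GRCm38.p6) held Lhx9, Tcf21, Six4, and Emx2, or 4 of the 9. The windows of 3 of them lay outside annotated exons, and these are shown. Each run is 200 bases, from 250 to 51 bases before the start, 5′ to 3′ on the minus strand, at chr1:138842495-138842694 for Lhx9, chr10:22820194-22820393 for Tcf21, and chr12:73113476-73113675 for Six4. The starts of Tcf21 and Six4 are at the 5′ end of the gene, whereas the Lhx9 window lies in an intron of the gene as annotated by GENCODE, ahead of a start further downstream. Capitals mark GATA on either strand (TATC where it is on the other), the core recognised by Gata4 and Gata6.
Lhx9: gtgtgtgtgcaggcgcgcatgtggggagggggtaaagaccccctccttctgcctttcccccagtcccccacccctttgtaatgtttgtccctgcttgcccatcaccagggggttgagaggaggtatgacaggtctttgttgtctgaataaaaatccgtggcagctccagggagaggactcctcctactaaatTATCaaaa
Tcf21: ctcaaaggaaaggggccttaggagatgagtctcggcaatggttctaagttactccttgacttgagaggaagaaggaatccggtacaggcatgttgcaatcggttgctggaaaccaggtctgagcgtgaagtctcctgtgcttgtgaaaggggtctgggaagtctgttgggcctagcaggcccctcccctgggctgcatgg
Six4: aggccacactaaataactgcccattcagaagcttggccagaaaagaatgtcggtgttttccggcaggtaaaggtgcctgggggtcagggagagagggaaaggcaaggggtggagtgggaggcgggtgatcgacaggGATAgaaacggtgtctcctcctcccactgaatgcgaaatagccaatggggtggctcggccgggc
GATA occurred 1 time in the window of Lhx9 and 1 time in that of Six4, 58 and 114 bases before the start, and 0 times in that of Tcf21, whereas 48.1% of all 32851 windows of the same length held it. TAATTA, a homeodomain core, CAAGGTCA, a form of the Nr5a1 site, and CAGCTG, a bHLH site, were searched on both strands, and none of these 3 overlaps GATA. They were in 4.20%, 1.12%, and 10.3% of all windows and in 0 of those shown. These are matches of letters and not sites of binding.

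The 9 genes fell into several patterns across the libraries when scaled by total UMIs. Gata4, Wt1, Lhx9, and Emx2 were highest at E11.5, Zfpm2, Tcf21, and Gata6 at D6, and Six4 and Cbx2 at E10.5. From E10.5 to D6, Gata4 was at 10.2 (9.17 to 11.4), 101 (97.3 to 105), 77.4 (74.5 to 80.4), and 92.0 (86.7 to 97.7) CPM. Its cofactor gene Zfpm2 was at 1.05 (0.724 to 1.46), 20.8 (19.0 to 22.6), 13.8 (12.6 to 15.1), and 102 (96.1 to 108) CPM. Gata6 was at 37.6 (35.5 to 39.8), 74.3 (71.0 to 77.8), 38.3 (36.3 to 40.5), and 336 (325 to 346) CPM. Gata4 thus lay in a similar range in the 3 later libraries, whereas D6 stood apart for Zfpm2 and Gata6.

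Wt1 was at 61.0 (58.4 to 63.8), 230.0 (224 to 236), 144.5 (140.5 to 149), and 183 (175 to 191) CPM in the same order. Lhx9, a LIM homeodomain factor, was at 17.2 (15.8 to 18.6), 193 (187 to 198.5), 160.4 (156 to 165), and 72.9 (68.1 to 77.9) CPM. Emx2, also a homeodomain factor, varied less than either, at 38.2 (36.1 to 40.4), 61.9 (58.9 to 65.1), 42.5 (40.3 to 44.7), and 55.7 (51.5 to 60.1) CPM. Tcf21 was at 19.6 (18.1 to 21.2), 152 (147 to 157), 125 (121 to 129), and 204 (196 to 212) CPM. Wt1, Lhx9, Emx2, and Tcf21 were thus lowest at E10.5, Emx2 by a small step (ratio of E12.5 to E10.5 1.11, 1.03 to 1.20).

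Six4 and Cbx2 were the 2 genes that were highest at E10.5. Six4 was at 12.6 (11.4 to 13.9), 7.19 (6.17 to 8.33), 11.47 (10.4 to 12.7), and 4.37 (3.26 to 5.73) CPM from E10.5 to D6. Cbx2 was at 32.5 (30.5 to 34.5), 15.5 (14.0 to 17.1), 15.4 (14.1 to 16.7), and 20.5 (18.0 to 23.2) CPM. When the 4 libraries were put in order for each gene by CPM, the counting interval of the ratio between neighbours included 1 in 3 places. These were Six4 at E10.5 and E12.5 (ratio 1.097, 0.953 to 1.26), Cbx2 at E11.5 and E12.5 (ratio 1.01, 0.880 to 1.15), and Gata6 at E12.5 and E10.5 (ratio 1.02, 0.942 to 1.102). These orders hold for scaling by total UMIs, and the step between D6 and E12.5 turned with TMM factors for Gata4, Wt1, Emx2, and Cbx2. Tcf21 was only 1.34-fold higher at D6 than at E11.5, and that order was not examined with other scalings.

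**Figure D1:**
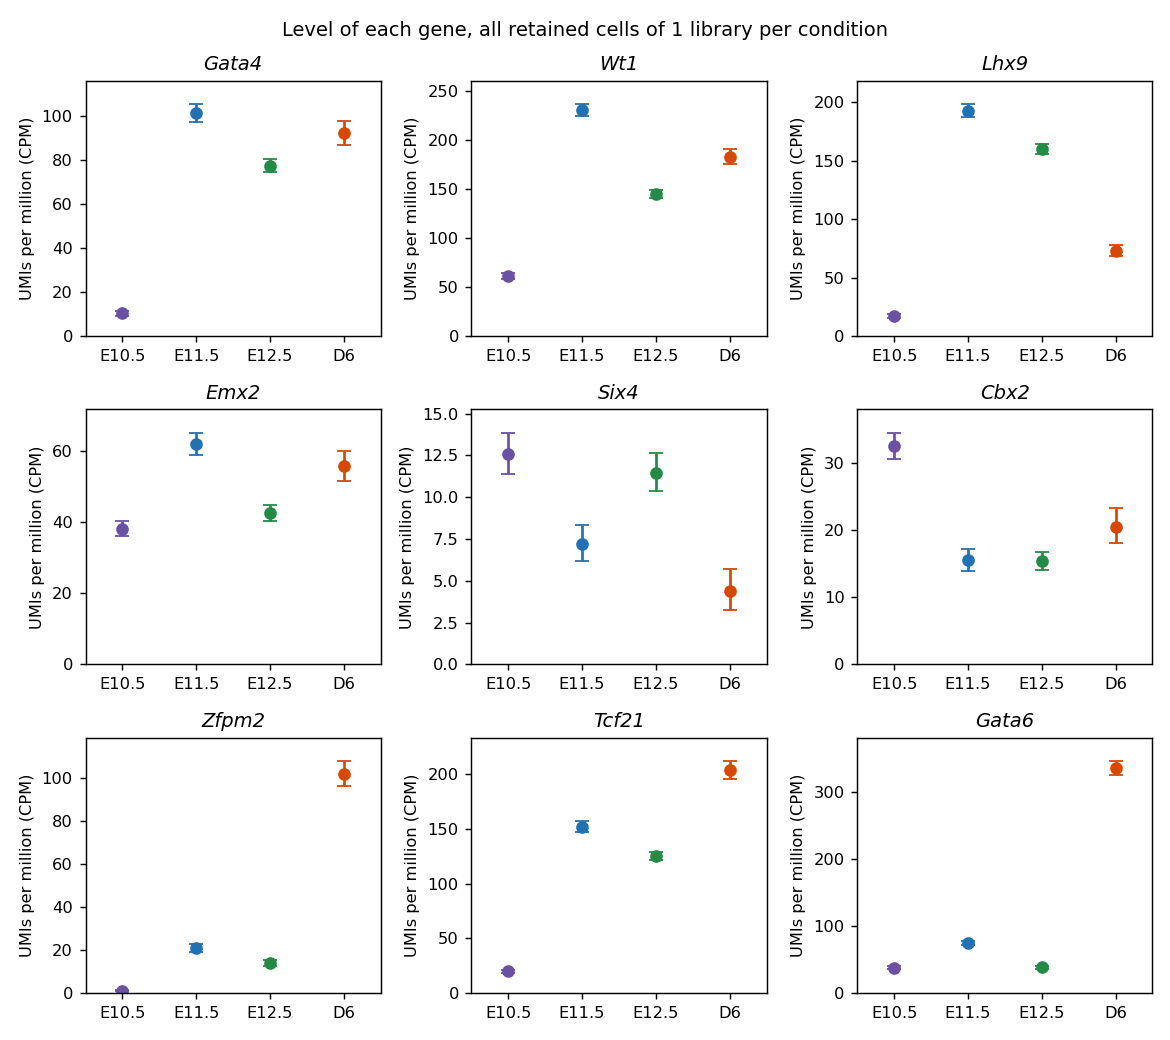
Level of each of the 9 genes (y axis, CPM, from 0) in all retained cells of the 4 libraries (x axis), with exact Poisson 95% intervals as bars. Gata6 and Zfpm2 stand apart at D6 (336 and 102 CPM). Gata4, Wt1, Lhx9, Emx2, Zfpm2, and Tcf21 are lowest at E10.5, Emx2 by a small step, and Gata6 is nearly equal at E10.5 and E12.5.

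The share of cells with a UMI moves with depth as well as with the level, and each cell was therefore also thinned to 2000 UMIs. Wt1 had a UMI in 22.6%, 68.4%, 53.7%, and 43.0% of cells and, after thinning, in 9.35%, 35.1%, 23.99%, and 27.0%. Gata6 was found in 20.0%, 45.2%, 30.4%, and 68.5% of cells, or 7.02%, 14.1%, 8.39%, and 44.1% after thinning, so that D6 was highest at both depths. Gata4 was in 6.15%, 46.0%, 49.8%, and 27.3% of cells and, after thinning, in 1.93%, 16.2%, 14.2%, and 14.8%. The lower share of Gata4 at D6 than at E12.5 before thinning was thus not seen at equal depth. For Lhx9 it was, with 4.59%, 47.2%, 46.9%, and 18.2% of cells before and 2.19%, 26.3%, 22.2%, and 9.26% after thinning.

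On average, 1.12, 3.33, 2.96, and 2.61 of the 9 genes had a UMI in a cell. At 2000 UMIs per cell the averages were 0.383, 1.35, 1.06, and 1.53, so that E11.5 was highest before thinning and D6 after it. None of the 9 was found in 38.4%, 10.6%, 7.71%, and 6.48% of cells, and all 9 were found together in 1 cell of E11.5 and 2 cells of E12.5. Upk3b-positive cells held the most genes per cell of the gates in the 3 later libraries, with 5.27, 5.45, and 5.02. At E10.5, the 72 Nr5a1-positive cells held 4 and the Upk3b-positive cells 2.48.

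As a background, endothelial cells (at least 3 of 6 endothelial markers) were examined, which numbered 68, 56, 39, and 15. In the 56 of E11.5, with a median depth of 16010 UMIs against 11926 in the library, Wt1 was at 44.3 (31.0 to 61.3) CPM and had a UMI in 25.0% of cells. Lhx9 was at 44.3 (31.0 to 61.3) CPM in them, Gata4 at 2.46 (0.298 to 8.89), and Emx2 at 8.62 (3.46 to 17.8). All 4 were thus well below their levels in the library. At E10.5, Lhx9 had 0 UMIs in 68 endothelial cells, which allows a share of cells with a UMI of up to 4.41% and limits detection, not expression. Zfpm2 at E10.5, with a UMI in 0.886% of all cells and 4.41% of endothelial cells (a UMI was found in 3 of 68), was not above this background. Nor was the unthinned share of Cbx2 in the 3 later libraries, with 23.2%, 20.5%, and 20.0% of endothelial cells against 16.1%, 16.9%, and 9.58% of all cells. The endothelial cells were deeper in these libraries too, with medians of 13499 UMIs at E12.5 and 8850 at D6, against 10946 and 4607. At D6 the share rests on only 15 endothelial cells.

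Between E10.5 and E11.5, 5 of the 8 genes that reached a mean of 10 CPM were over 2-fold higher at E11.5, namely Gata4, Wt1, Lhx9, Zfpm2, and Tcf21. Of all 7892 genes that reached this level, 8.35% were higher by this limit and 5.22% lower. The ratio was 9.88 (8.81 to 11.1) for Gata4, 3.77 (3.58 to 3.97) for Wt1, 11.2 (10.3 to 12.3) for Lhx9, and 7.75 (7.13 to 8.45) for Tcf21. Zfpm2 reached the mean of 10 CPM only through E11.5, with 34 UMIs at E10.5 and 511 at E11.5, and no size is given for its change, since its level at E10.5 was not above that of endothelial cells. Gata6 was just under the limit at 1.98 (1.84 to 2.13), and Emx2 was at 1.62 (1.504 to 1.75). Cbx2 was the only gene of the 8 past the limit in the other direction, 2.10-fold lower (1.86 to 2.36). When mitochondrial, haemoglobin, and ribosomal protein genes were left out of the totals, Cbx2 no longer was (log2 ratio -0.96). Other totals move all ratios alike, and with these Gata6 passed the limit as higher at E11.5. Six4, below 10 CPM on average, was 1.75-fold lower (1.46 to 2.10). Without Pou5f1-positive and endothelial cells, the log2 ratio of Six4 was -2.41 in place of -0.81, and Gata6 passed the limit at 1.18. Nr5a1-positive cells were 1.88% of cells at E10.5 and 34.75% at E11.5. In them, Wt1 was at 305 and 310 CPM, Lhx9 at 320 and 178, Emx2 at 157 and 68.6, and Gata6 at 137 and 88.7. Gata4 was at 63.5 and 170 CPM in these cells and Tcf21 at 87.5 and 112. The part of cell makeup in the ratios between the 2 libraries was not tested.

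None of the 8 genes that reached 10 CPM was past 2-fold between E11.5 and E12.5, where 1.38% of 7945 genes were higher and 1.25% lower at E12.5. The level was lower at E12.5 for Gata6 (0.516, 0.480 to 0.554), Wt1 (0.628, 0.605 to 0.653), Zfpm2 (0.666, 0.586 to 0.756), and Emx2 (0.686, 0.638 to 0.737), given as ratios. Gata4 and Lhx9 were at 0.764 (0.723 to 0.807) and 0.832 (0.800 to 0.865). Pou5f1-positive cells were 11.7% of cells at E11.5 and 18.5% at E12.5. Without them and endothelial cells, the log2 ratio of Lhx9 was -0.06 in place of -0.27 and that of Gata6 -0.75 in place of -0.96. When mitochondrial, haemoglobin, and ribosomal protein genes were left out of the totals, Gata6 was past the limit at -1.01.

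Nr5a1-positive cells of E10.5 were few, but most of the 9 genes were already high in them. Of the 7 genes that reached 10 CPM, 6 were over 2-fold higher in the 72 Nr5a1-positive cells than in the 3765 Nr5a1-negative cells, against 4.53% of 7675 genes. Gata4, 1 of these 6, was at 9.06 CPM in the negative cells and reached the mean of 10 CPM only through the positive cells. Lhx9 was at 320.3 (280.0 to 365) CPM against 10.4 and thus 30.8-fold (25.9 to 36.5) higher, with a UMI in 70.8% of the positive cells. This level was above the 178 (169.6 to 186) CPM of Nr5a1-positive cells at E11.5. Of all Lhx9 UMIs at E10.5, 40.7% were in these 72 cells, which made up 1.88% of cells and 2.18% of all UMIs. Wt1 was at 305 (265.5 to 348) CPM and 5.48-fold (4.74 to 6.32) higher, and Emx2 at 157 (129 to 189) CPM and 4.41-fold (3.59 to 5.36) higher.

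Gata4 was at 63.5 (46.3 to 85.0) CPM in the Nr5a1-positive cells of E10.5, which was 7.01-fold (5.00 to 9.63) above the negative cells but below the 170.0 (162 to 178) CPM of Nr5a1-positive cells at E11.5. Gata6 was at 137 (111 to 167) CPM and 3.87-fold (3.11 to 4.76) higher, and Tcf21 was at 87.5 (67.1 to 112) and 4.83-fold (3.65 to 6.29) higher. Cbx2, the seventh gene, was at 26.8 (16.1 to 41.9) against 32.6 CPM. Zfpm2 had 1 UMI in the 72 cells and Six4 had 2, with levels of 1.41 (0.0357 to 7.86) and 2.82 (0.342 to 10.2) CPM. Zfpm2 was thus at the level of single molecules in the cells of E10.5 in which Gata4 was higher. With TMM factors all log2 ratios at E10.5 were lower by 0.10 (log2 shift -0.10), and 280 genes were higher and 312 lower in place of 348 and 258, while the same number of the 9 genes, 6, was past the limit. Gata4, Wt1, Lhx9, Emx2, Tcf21, and Gata6 were thus higher in Nr5a1-positive cells at E10.5. Six4, Cbx2, and Zfpm2 were not shown to be. The genes were chosen with earlier results of these data known, so these values describe them and are no check of their naming as gonad regulators.

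In the later libraries, the division by Nr5a1 separated fewer of the genes, but the Nr5a1-negative cells were not alike between libraries. Those of E10.5 came from tissue with dorsal mesenchyme, and their sclerotome and cartilage genes summed to 216 CPM, against 8.57 in all cells of E11.5. Those of D6 came from cells enriched by the Nr5a1 reporter. The part of this in the ratios was not tested. At E11.5, only Gata4 of the 8 that reached 10 CPM passed the limit, 3.12-fold (2.87 to 3.40) higher in Nr5a1-positive cells, where 5.09% of 7877 genes did. At E12.5, Gata4 was 2.47-fold (2.29 to 2.67) and Wt1 2.20-fold (2.08 to 2.33) higher, where 5.49% of 7972 genes were past the limit. At D6, 0 of 8 passed, against 4.95% of 9172 genes, and the ratio of Gata4 was 1.64 (1.45 to 1.85) and that of Emx2 1.91 (1.63 to 2.23). Lhx9, which had been so unequal at E10.5, was at ratios of 0.875 (0.825 to 0.928), 0.976 (0.921 to 1.03), and 1.44 (1.26 to 1.65) in the 3 later libraries. Tcf21 was lower in Nr5a1-positive cells of these libraries, with ratios of 0.627 (0.584 to 0.673), 0.823 (0.768 to 0.880), and 0.540 (0.490 to 0.594). Six4 was lower in Nr5a1-positive cells of every library, with ratios between 0.181 and 0.388, and the interval of each lay below 1. The 6 germ cell markers summed to 33.3, 848.5, 2467, and 14.2 CPM in Nr5a1-negative cells from E10.5 to D6, against 0, 80.5, 88.4, and 5.27 in Nr5a1-positive cells. Without Pou5f1-positive and endothelial cells on either side, Gata4 was 2.59-fold (2.37 to 2.83) higher in Nr5a1-positive cells at E11.5, and 0 genes in place of 2 passed at E12.5, with Gata4 at a ratio of 1.57 (1.45 to 1.70) and Wt1 at 1.42 (1.34 to 1.504). Lhx9 was then at ratios of 0.711 (0.669 to 0.756), 0.618 (0.583 to 0.656), and 1.45 (1.26 to 1.66) in the 3 later libraries. Six4 was at 0.221 (0.0267 to 0.804), 0.656 (0.341 to 1.22), 0.699 (0.404 to 1.18), and 0.432 (0.184 to 0.907) from E10.5 to D6, so that the intervals of E11.5 and E12.5 included 1. At E10.5, the same 6 genes passed the limit without these cells. With at least 2 UMIs of Nr5a1 asked for, 3 genes in place of 1 passed at E11.5, Gata4, Wt1, and Zfpm2, at log2 ratios of 2.03, 1.01, and 1.18. The share of all genes past the limit was not computed under these alternatives, so their counts have no background to be read against.

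**Figure D2:**
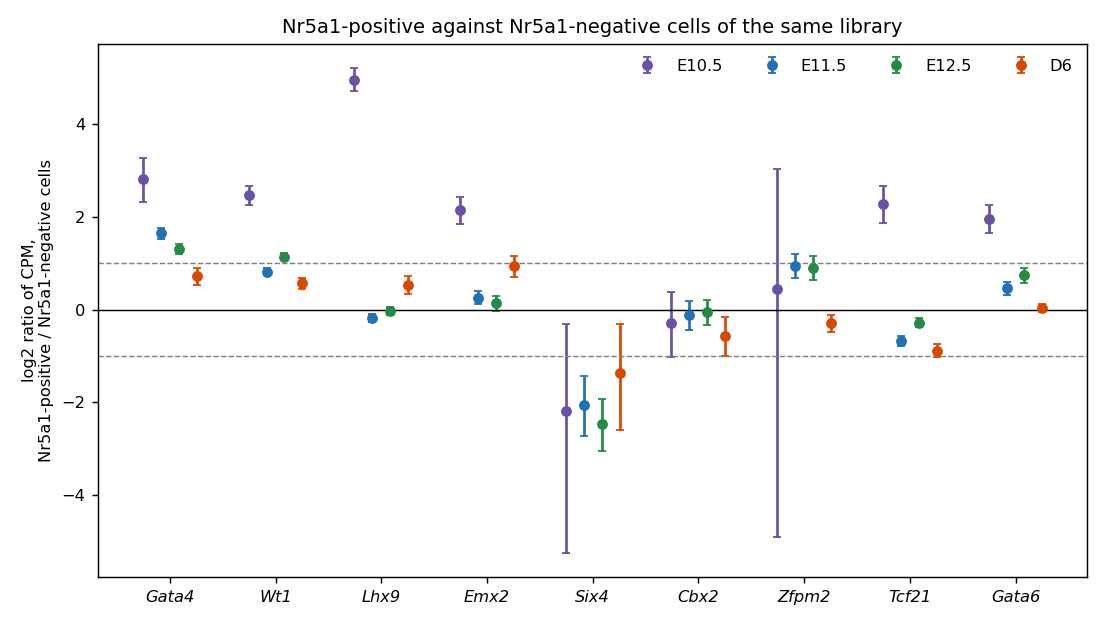
Log2 ratio of CPM in Nr5a1-positive to Nr5a1-negative cells (y axis) for each gene (x axis) in each library (colours), with exact conditional 95% intervals as bars and dashed lines at 2-fold. At E10.5, the ratios of Lhx9, Gata4, Wt1, Tcf21, Emx2, and Gata6 lie between 3.87 and 30.8, above the upper line, and Six4 lies below 0 in all 4 libraries.

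Upk3b-positive cells had the highest level of Lhx9 of the gates in the 3 later libraries. From E10.5 to D6, Lhx9 was at 101 (89.3 to 113), 464 (444 to 485), 525 (502 to 549), and 319 (289 to 352) CPM in them. This was between 3.43-fold and 11-fold above Upk3b-negative cells of the same library. These cells held 51.4%, 42.2%, 34.8%, and 46.4% of all Lhx9 UMIs and were 8.11%, 14.7%, 9.30%, and 8.14% of the cells. Emx2 was at 110.4, 138, 173, and 203 CPM in them, 3.01-fold to 6.43-fold above the negative cells. Wt1, at 188, 315, 335.5, and 383 CPM, and Tcf21, at 38.5, 305, 277, and 525.5 CPM, were also higher in Upk3b-positive cells of all 4 libraries. Gata4 was not uniform: its ratio was 4.59 (3.60 to 5.82) at E10.5 and, at D6, 1.68 (1.42 to 1.97), but 0.793 (0.707 to 0.887) at E11.5.

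Sox9-positive and Pdgfra-positive cells, used at E11.5 and E12.5 for supporting and interstitial lineages, differed in these genes. Both gates are mixed, so their levels are not those of pure lineages. At E11.5 the 6 Sertoli markers summed to 1205 CPM in Sox9-positive and 287.5 in Pdgfra-positive cells. The 6 interstitial markers summed to 300 and 646 CPM in the same cells. In Sox9-positive cells, Gata4 was at 174 (166 to 183) and 139 (132 to 146.5) CPM at E11.5 and E12.5, and in Pdgfra-positive cells at 101 (94.2 to 108) and 81.7 (76.8 to 86.9). Wt1 was at 311 (299.8 to 322) and 247 (237 to 256) CPM in Sox9-positive and 232.5 (222 to 243) and 128 (122 to 134) in Pdgfra-positive cells. Lhx9 had the opposite order, with 140.3 (133 to 148) and 96.8 (91.0 to 103) CPM in Sox9-positive and 264 (253 to 275) and 274 (265 to 283) in Pdgfra-positive cells. Tcf21 was also higher in Pdgfra-positive cells, at 227 (217 to 237) and 225 (217 to 234) CPM against 112 (105 to 118.5) and 77.7 (72.5 to 83.2). The gates share 219 and 259 cells in the 2 libraries, and the intervals of these pairs did not overlap.

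Sox9-positive cells were also split by Nr5a1, a division added after the data had been seen. In the 459 cells of E11.5 positive for both, Tcf21 was at 51.8 CPM against 216 in the 309 Sox9-positive cells without a UMI of Nr5a1, 4.17-fold lower (3.66 to 4.76). Lhx9 was 2.35-fold lower (2.11 to 2.62) in the cells positive for both, whereas Gata4 was 2.30-fold (2.04 to 2.59) and Wt1 1.62-fold (1.49 to 1.76) higher. At E12.5 the same 4 genes had the same order, with Tcf21 3.58-fold lower (3.08 to 4.17), Lhx9 3.05-fold lower (2.67 to 3.48), Gata4 1.42-fold (1.27 to 1.58) higher, and Wt1 1.61-fold (1.48 to 1.75) higher. At D6, in 104 cells positive for both, Tcf21 was 2.42-fold lower (1.85 to 3.20) and Wt1 2.76-fold (2.25 to 3.40) higher, whereas the ratio for Lhx9 was 0.728 (0.487 to 1.07). Emx2 lay in opposite directions, with a ratio of 0.547 (0.446 to 0.671) at E12.5 but 2.04 (1.39 to 3.01) in the D6 cells. Gata6 was 1.94-fold lower (1.64 to 2.31) at D6 and at a ratio of 1.01 (0.851 to 1.20) at E12.5.

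Among Pdgfra-positive cells, the same division by Nr5a1 gave smaller differences for Lhx9 and Tcf21 in the gonads. At E12.5 the ratio of cells positive for both to Pdgfra-positive cells without a UMI of Nr5a1 was 0.935 (0.870 to 1.00) for Lhx9 and 0.826 (0.761 to 0.896) for Tcf21. At D6 both were higher in the cells positive for both, Lhx9 2.07-fold (1.54 to 2.76) and Tcf21 1.29-fold (1.09 to 1.52). Emx2, at 0.919 (0.786 to 1.07) at E12.5, was at 3.13 (2.17 to 4.48) at D6. The differences between libraries in these ratios were not tested.

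At E10.5, Sox9-positive and Pdgfra-positive cells had lower levels of Gata4, Wt1, Lhx9, and Tcf21 than the same gates at E11.5 and E12.5. Sox9-positive cells were at 12.48 (10.1 to 15.3) CPM for Gata4 and 17.4 (14.5 to 20.6) for Lhx9, and Pdgfra-positive cells at 8.64 (6.76 to 10.9) and 10.7 (8.58 to 13.2). Wt1 was at 65.0 CPM in Sox9-positive and 76.7 in Pdgfra-positive cells, not below the 61.0 of all retained cells. Tcf21 was at 14.4 and 20.3 CPM, against 19.6 in all retained cells. Only 13 of 786 Sox9-positive and 11 of 917 Pdgfra-positive cells at E10.5 had a UMI of Nr5a1. The 5 sclerotome and cartilage genes summed to 412 CPM in these Sox9-positive and 213 CPM in these Pdgfra-positive cells, against 6.55 and 13.3 at E11.5.

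**Figure D3:**
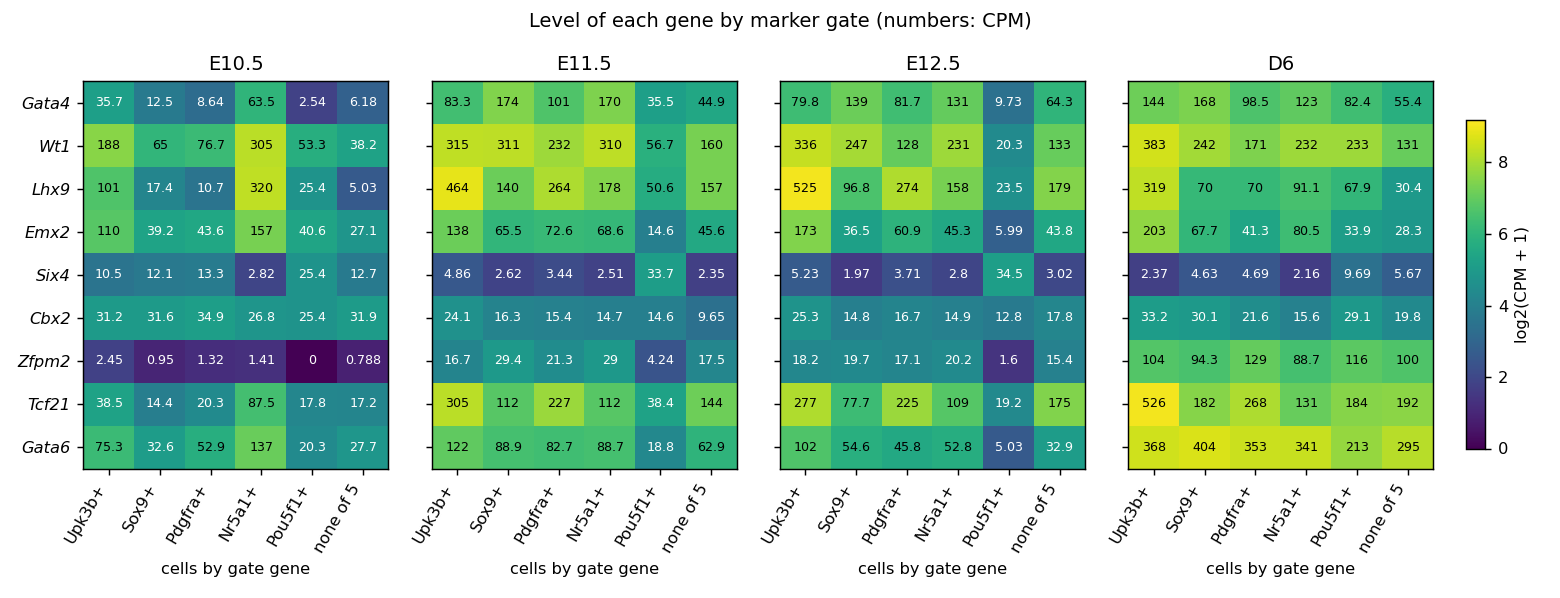
Level of each gene (rows; printed numbers are CPM, colours log2(CPM + 1)) in cells positive for each gate gene and in cells with none of the 5 (columns), for each library. The Lhx9 row is highest in Upk3b-positive cells of E12.5 (525 CPM), the Six4 row in Pou5f1-positive cells of E12.5 (34.5 CPM), and the Gata6 row is high across all columns of D6 (213 to 404 CPM).

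At E11.5 and E12.5, most UMIs of Six4 lay in Pou5f1-positive cells. At E12.5, 82.4% of its UMIs (78.3 to 86.0) were in Pou5f1-positive cells, which made up 18.5% of cells and 27.4% of all UMIs, and at E11.5 71.8% (64.5 to 78.2). Its level there was 33.7 (28.1 to 40.0) and 34.5 (30.9 to 38.5) CPM in these 2 libraries, with a UMI in 31.4% and 44.1% of cells at a median depth of 16432 and 18147 UMIs. After thinning to 2000 UMIs, the shares were 5.56% and 5.08%, against 0.425% and 0.453% in Nr5a1-positive cells. At E10.5, with 36 Pou5f1-positive cells, Six4 was at 25.4 CPM in them, from 10 UMIs, the highest of the gates. Its ratio to Pou5f1-negative cells was 2.04 (0.972 to 3.80), with an interval that included 1. Six4 was also found outside this gate, at 12.7 (11.01 to 14.5) CPM in cells with none of the gate genes. It was at 13.3 (10.96 to 16.1) in Pdgfra-positive cells and 12.1 (9.70 to 14.9) in Sox9-positive cells.

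Since a UMI of Pou5f1 alone may not mark a germ cell, its positive cells were split by 6 germ cell markers, also after the data had been seen. With at least 2 of the markers, 181 cells of E11.5 and 446 of E12.5 had Six4 at 43.1 (35.9 to 51.3) and 37.3 (33.3 to 41.6) CPM. The remaining 64 and 66 cells had Six4 at 1.18 (0.0298 to 6.56) and 4.99 (1.36 to 12.8) CPM, from 1 and 4 UMIs. In the cells with germ cell markers, Gata4, Wt1, Lhx9, Emx2, Zfpm2, Tcf21, and Gata6 were each at most 8.55 CPM in the former library and at most 2.92 CPM in the latter, and Zfpm2 had 0 UMIs at E12.5. The remaining cells had them at higher levels, for example Wt1 at 222 and 215 CPM and Lhx9 at 195 and 243. For Cbx2 the intervals of both kinds of cells overlapped, at 14.7 (10.7 to 19.8) and 14.1 (7.30 to 24.7) CPM at E11.5 and 12.4 (10.2 to 15.0) and 17.5 (9.55 to 29.3) at E12.5.

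**Figure D4:**
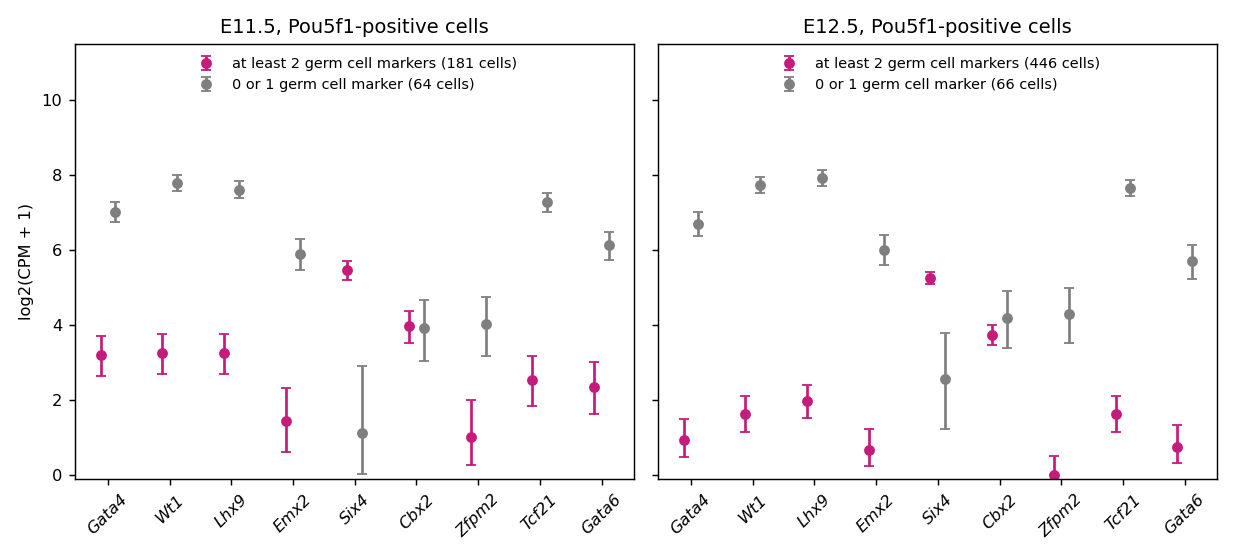
Level (y axis, log2(CPM + 1)) of each gene (x axis) in Pou5f1-positive cells with at least 2 of 6 germ cell markers and with 0 or 1, at E11.5 and E12.5, with exact Poisson 95% intervals as bars. Six4 is higher in the cells with germ cell markers (43.1 and 37.3 CPM), Cbx2 overlaps, and the other 7 are lower.

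At D6, 32 cells were Pou5f1-positive, and 2 of them had at least 2 germ cell markers. In these 32 cells Gata6 was at 213 (155 to 286) CPM, Wt1 at 233 (172 to 308.5), Tcf21 at 184 (130.3 to 253), and Zfpm2 at 116 (74.5 to 173). Six4 had 2 UMIs in them, or 9.69 (1.17 to 35.0) CPM.

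Between D6 and E12.5, Gata6 and Zfpm2 were over 2-fold higher and Lhx9 over 2-fold lower at D6, of 8 genes that reached 10 CPM. Of all 8837 genes, 24.5% were higher and 7.15% lower at D6, and the median log2 ratio was 0.27, so that a higher level at D6 was common. Gata6 was 8.76-fold higher (8.23 to 9.33), from 1310 UMIs at E12.5 and 3997 at D6, and Zfpm2 7.36-fold higher (6.62 to 8.21). Lhx9 was 2.20-fold lower (2.05 to 2.37). The ratio was 1.63 (1.55 to 1.71) for Tcf21, 1.27 (1.20 to 1.33) for Wt1, 1.31 (1.20 to 1.44) for Emx2, 1.33 (1.14 to 1.56) for Cbx2, and 1.19 (1.11 to 1.28) for Gata4. Six4, below 10 CPM on average, was 2.63-fold lower (1.96 to 3.58), but without Pou5f1-positive and endothelial cells its log2 ratio turned from -1.39 to 0.54.

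The scaling mattered for the smaller differences. With TMM factors all log2 ratios between D6 and E12.5 were lower by 0.47 (log2 shift -0.47), and 1140 genes were higher and 1666 lower at D6, in place of 2165 and 632. With this scaling, the log2 ratio was 2.66 for Gata6, 2.41 for Zfpm2, 0.23 for Tcf21, and -1.61 for Lhx9. The direction turned for Gata4 (from 0.25 to -0.22), Wt1 (0.34 to -0.13), Emx2 (0.39 to -0.08), and Cbx2 (0.42 to -0.06). For these 4 no direction between D6 and E12.5 can be given.

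When only Nr5a1-positive cells were compared, 664 of D6 and 883 of E12.5, Gata6 and Zfpm2 were over 2-fold higher at D6, where 23.1% of 8777 genes were, and 0 of 8 were lower, where 7.01% were. This comparison shares cells with that of all cells. The makeup of the Nr5a1-positive cells differed as well. The steroidogenic markers summed to 842 CPM in them at D6 and 38.1 at E12.5, the Sertoli markers to 419 and 2716, and the interstitial markers to 836 and 437, and their part in the differences was not tested. Gata6 was at 341 (323 to 359) CPM in these D6 cells and 52.8 (48.5 to 57.3) CPM in those of E12.5, a ratio of 6.46 (5.86 to 7.13). Zfpm2 was at 88.7 (79.9 to 98.2) and 20.2 (17.6 to 23.1) CPM, a ratio of 4.38 (3.70 to 5.21). The ratio of Wt1 was 1.00 (0.930 to 1.08), from 231.5 and 231 CPM, and that of Gata4 0.942 (0.850 to 1.04), from 123 and 131 CPM. With TMM factors, 1035 genes were higher and 1499 lower in place of 2031 and 615, and the log2 ratios of Wt1 and Gata4 were -0.45 and -0.54.

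Lhx9 was at 91.1 (82.2 to 101) CPM in Nr5a1-positive cells of D6 and 158 (150.4 to 165.5) in those of E12.5, 1.73-fold lower (1.55 to 1.94), and passed the limit with TMM factors or DESeq2 size factors (log2 ratio -1.24 and -1.24) and with all deposited barcodes (-1.05). Emx2 was at 80.5 (72.2 to 89.6) and 45.3 (41.4 to 49.5) CPM, a ratio of 1.78 (1.54 to 2.05), and passed the limit with at least 2 UMIs of Nr5a1 asked for (log2 ratio 1.20). The ratio of Tcf21, 1.20 (1.08 to 1.33), turned direction with TMM factors, at a log2 ratio of -0.18.

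The level of Gata6 at D6 was high in each gate and also in cells with none of the gate genes, at 295 (278 to 313) CPM. Its lowest gate of D6, Pou5f1-positive cells at 213 (155 to 286) CPM, was above the highest gate of any gonad library, Nr5a1-positive cells of E10.5 at 137 (111 to 167) CPM, although their intervals overlapped. Zfpm2 was between 88.7 and 129 CPM in the gates of D6 and at most 29.4 CPM in any gate of the gonads. In the 15 endothelial cells of D6, Gata6 had 1 UMI and Zfpm2 1.

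**Figure D5:**
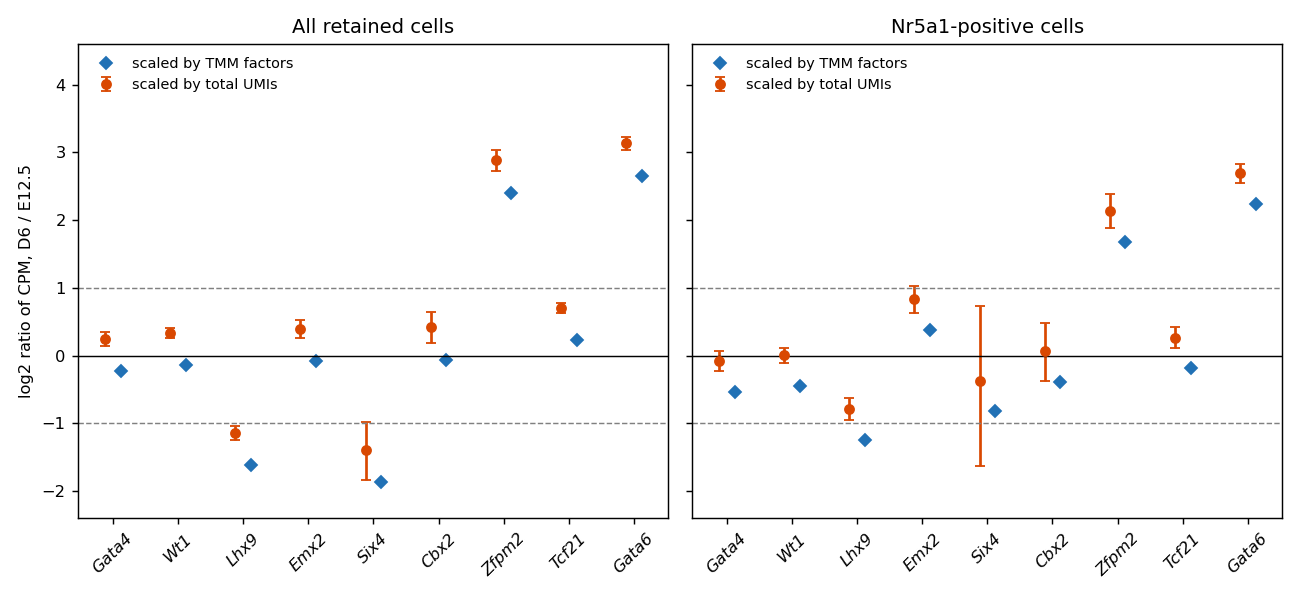
Log2 ratio of CPM between D6 and E12.5 (y axis) for each gene (x axis) in all retained cells and in Nr5a1-positive cells, scaled by total UMIs (circles, with exact conditional 95% intervals) or by TMM factors (diamonds, without intervals), with dashed lines at 2-fold. Gata6 and Zfpm2 lie above the upper line and Lhx9 below 0 under both scalings.

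Among 16 paralogs of the 9 genes, 4 reached 10 CPM between E10.5 and E11.5, and 0 of these were over 2-fold higher at E11.5, where 8.35% of all genes were. Gata3 was lower at E11.5, at 25.6 and 1.30 CPM, as was Tcf15, a bHLH gene of the somites, at 91.1 and 12.0. Between E11.5 and E12.5, 0 of 3 were past the limit, where 1.38% of all genes were higher and 1.25% lower. Between E12.5 and D6, 3 of 4 were higher at D6, Six5, Cbx6, and Zfpm1 (Fog1), where 24.5% of all genes were. With TMM factors 2 of the 4 were higher, and 1140 in place of 2165 of all genes. Zfpm1 was at 3.45 and 28.9 CPM.

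Among 18 other genes of gonad formation, 16 reached 10 CPM between E10.5 and E11.5, with 5 over 2-fold higher at E11.5 (Nr5a1, Nr0b1, Gadd45g, Numb, and Fgf9), where 8.35% of all genes were. Osr1 and Bmp4 were among those over 2-fold lower. Nr5a1 was at 3.11 and 67.9 CPM. From E11.5 to E12.5, 0 of 14 were higher and 2 were lower (Wnt4 and Gadd45g), where 1.38% and 1.25% of all genes were. Between E12.5 and D6, 10 of 16 were higher at D6 and 1, Fgf9, was lower, where 24.5% and 7.15% of all genes were. With TMM factors 7 of the 16 were higher, and 1140 in place of 2165 of all genes. Wnt4, a ligand of ovarian development, was at 12.49 CPM at E12.5 and 376.5 at D6. In the Nr5a1-positive cells of E10.5, 2 of 13 were over 2-fold higher than in negative cells, Wnt4 and Rspo1, where 4.53% of all genes were. Gadd45g was over 2-fold lower.

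Across the 22 groups of at least 50 cells formed by the libraries and gates, the pattern of each gene was compared with those of 5393 genes that reached 50 CPM in some group, as Pearson's r of log2(CPM + 10). The groups share libraries and cells, and r is a description. Of the 27 nearest genes given here, 3 for each of the 9, 11 were also among the nearest with Spearman correlation. Among the 9, Gata4 and Wt1 were at r = 0.859 and Zfpm2 and Gata6 at 0.836, whereas Wt1 and Six4 were at -0.834. Over all genes, the nearest to Gata4 were Axl, Ucp2, and Zmym3 (0.935, 0.924, and 0.923), and to Wt1 Lpl, Naaa, and Vasn (0.947, 0.937, and 0.903). Lhx9 was nearest to Myl7, 2310009B15Rik, and Gm47101 (0.913, 0.910, and 0.896). For Emx2 they were Rspo1, Kyat3, and Pigyl (0.927, 0.917, and 0.908), where Rspo1 is a secreted activator of Wnt signaling.

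Six4 was nearest to Sall4, Trim71, and Ube2k (0.963, 0.954, and 0.950), of which Sall4 and Trim71 are known from germ and pluripotent cells and had a Spearman rho of 0.601 and 0.724. Tcf21 was nearest to Gucy1a1, Csdc2, and Alcam (0.982, 0.970, and 0.946). Zfpm2 was nearest to Serf1, Adamts10, and Vegfa (0.984, 0.983, and 0.980), and Gata6 to Zmiz1, Ext1, and Krit1 (0.975, 0.970, and 0.962). Both Zfpm2 and Gata6 were higher in each D6 group than in any gonad group, and D6 also differs in kit, strain, culture, and sorting. The part of this difference in their r, and in the r between them, was not tested. For Cbx2 they were Cdk2ap1, Srsf10, and Pitpnb (0.898, 0.865, and 0.854).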

How the data were processed

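UMI count matrices of 4 libraries of XY cells were used. The authors made them with Cell Ranger (3.0.2 per the submitters' processing notes, 6.0.0 per the file headers) on mm10 and deposited raw counts per gene and cell barcode. Other samples of the study are not analysed here. Cells were retained with over 1000 and under 4000 detected genes and under 10% mitochondrial UMIs (E10.5), 500, 5000, and 20% (E11.5), 2000, 5000, and 8% (E12.5), or 1000, 4000, and 12% (D6). Counts were summed over cells and scaled by total UMIs. A gene counted as past the limit if its CPM ratio was over 2 or under 0.5, at a mean of at least 10 CPM. Ratio intervals were exact conditional (Clopper-Pearson) intervals, and a count of 0 was read as up to 3 counts. Thinning to 2000 UMIs left out 6, 209, 0, and 16 cells from E10.5 to D6. Doublets were kept. Scrublet called 158, 18, 27, and 45 of them, where for E10.5 and D6 its own threshold was replaced by the expected doublet rate. The genes, gates, and lists were chosen with earlier results of these data known. Named genes were the 9 members, the 5 gate genes, the 3 genes nearest to each member, and genes of the 2 lists, some of which are not reported here. The ratio step was tested on simulated data. Python 3.11.15, numpy 2.4.6, scipy 1.17.1, pandas 2.3.3, scanpy 1.11.5, and matplotlib 3.10.9 were used, with edgeR 4.0.16 and DESeq2 1.42.0 in R 4.3.3 for alternative scaling factors.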

Additional observations from a re-analysis of the deposited data

Results flagged for a closer look

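For 3 genes the ratio of CPM in Nr5a1-positive to Nr5a1-negative cells lay above 1 in some libraries and below 1 in others, with intervals that did not include 1. With 1 library per condition, the difference between libraries was not tested. The Nr5a1-negative cells also differed in makeup between the libraries. For Lhx9 the ratio was 30.8 (25.9 to 36.5) in the E10.5 library and 1.44 (1.26 to 1.65) in the D6 library, but 0.875 (0.825 to 0.928) in that of E11.5. For Tcf21 it was 4.83 (3.65 to 6.29) in the E10.5 library and 0.627 (0.584 to 0.673), 0.823 (0.768 to 0.880), and 0.540 (0.490 to 0.594) in the 3 later ones. For Zfpm2 it was 1.92 (1.60 to 2.29) and 1.86 (1.54 to 2.24) in the later gonads and 0.816 (0.720 to 0.923) in the D6 library. In cells with at least 2 UMIs of Nr5a1, the log2 ratio of Lhx9 was -0.76 at E11.5 and 0.04 at D6. Without Pou5f1-positive and endothelial cells, the ratios of Zfpm2 were 1.55 (1.29 to 1.86), 1.19 (0.987 to 1.44), and 0.797 (0.702 to 0.904) in the 3 later libraries, so that the interval of E12.5 included 1.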

How the results depend on the processing

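No paired analysis was possible because each condition had 1 library. The number of genes past 2-fold was within 1.5 times the main number under all scalings, cell filters, and doublet removal, with 3 exceptions. Between E12.5 and E11.5 it was 1 in place of 0 when mitochondrial, haemoglobin, and ribosomal protein genes were left out of the totals (Gata6, lower). Between Nr5a1-positive and Nr5a1-negative cells of E11.5 it was 3 in place of 1 with at least 2 UMIs of Nr5a1, and for those of E12.5 it was 0 in place of 2 without Pou5f1-positive and endothelial cells, an alternative chosen after seeing the data. For these 3 exceptions the share of all genes past 2-fold was not computed. Thinned to 2000 UMIs, the mean number of genes detected per cell was 0.383, 1.35, 1.06, and 1.53 from E10.5 to D6. Single levels and ratios were less stable than these numbers of genes. When mitochondrial, haemoglobin, and ribosomal protein genes were left out of the totals, 206 levels left their counting interval and 46 did not. After thinning to 2000 UMIs, 205 shares of cells left theirs and 11 did not. In cells positive for no other gate gene, 96 gate levels left their counting interval and 57 did not. With at least 2 UMIs of the gate gene, 79 did and 74 did not. Without Pou5f1-positive and endothelial cells, 39 log2 ratios left their interval and 33 did not. Of the 27 genes nearest in pattern, 11 were kept with Spearman correlation and 19 with a pseudocount of 1 CPM. Depth limits Six4 and, at E10.5, Zfpm2, whose levels rest on 34 to 409 UMIs per library.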
